A study of Saccharomyces cerevisiae with 2 samples.

Results

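The genes described here encode the proteins of the yeast mitochondrial ribosome, chosen by name: every protein-coding feature of the count table called MRPL, MRPS or RSM followed only by digits. There were 54 such genes among 6420 features, of which 5995 were mRNAs. The 34 MRPL genes encode the large subunit, and the 20 genes named MRPS (9 genes) or RSM (11 genes) are counted as the small subunit. RSM22 is counted there by its name only. The rule uses names and no expression value, but it was set with earlier results of these data known. The transcript levels of cdc55Δ cells, which lack the B55-type regulatory subunit of protein phosphatase 2A, were set against those of wild-type (WT) cells of the same BY4741 laboratory strain at an early point of alcoholic fermentation. Both strains stood unshaken at 30 °C for 6 h in YPD20, a rich medium with 20% glucose. The total RNA was depleted of rRNA before sequencing. Each strain gave 1 library, so no difference has a replicate check and no p-value is given.

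The mitochondrial ribosome translates the few proteins that the mitochondrial genome still encodes, almost all of them membrane subunits of the respiratory chain and the ATP synthase. Its rRNAs come from mitochondrial DNA, whereas its proteins, with the exception of Var1p, come from nuclear genes whose products are made in the cytosol and imported. Part of these proteins have counterparts in bacterial ribosomes, and the others are found only in mitochondrial ribosomes. In the family names used for ribosomal proteins, u or b marks a protein with a bacterial counterpart, m at the start marks a mitochondria-specific protein, and L or S gives the subunit. Many of the mRNAs carry a short sequence in the 3′ untranslated region that is recognised by Puf3p, an RNA-binding protein of the Pumilio family that acts on mRNAs for mitochondrial biogenesis. In yeast, the respiratory machinery is used little while glucose is abundant.

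The Puf3p recognition sequence, TGTANATA, was searched within 200 bases after each stop codon, since it is the sequence feature these genes are best known to share. It was present on the transcribed strand of 53 of 54 genes (98.1%), comprising 34 of 34 large subunit genes and 19 of 20 small subunit genes. Among all mRNA features with a window in the reference genome, 844 of 5980 (14.1%) had it. The complementary strand of the same windows held it in 10 of 54 genes (18.5%), near the 13.2% of all mRNAs. The gene without a match was RSM22, which encodes a methyltransferase-like protein and has no ribosomal protein family name in RefSeq. The 53 genes held 66 matches, 41 genes with 1, 11 genes with 2 and RSM19 with 3. Matches of 8 genes on which the results turn are printed 5′ to 3′ as in the mRNA, with T for U and the matching bases in capitals, from the RefSeq copy of the S288C genome (R64).
MRPL28, base 32 after the stop codon, chrIV:1386537-1386566 plus strand: ctgtctcctgcTGTAAATAactgatgatca
MRPL28, base 88 after the stop codon, chrIV:1386593-1386622 plus strand: atataattataTGTACATAgacatataaag
MRPL36, base 102 after the stop codon, chrII:483850-483879 minus strand: ataaacagcctTGTATATAccgcaacatat
MRPL36, base 138 after the stop codon, chrII:483814-483843 minus strand: acgtctacataTGTATATAttgacaacgaa
RSM10, base 59 after the stop codon, chrIV:540462-540491 plus strand: gatttcgtactTGTAAATAaaataggtgaa
MRPS12, base 74 after the stop codon, chrXIV:694269-694298 minus strand: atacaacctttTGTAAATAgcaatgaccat
RSM19, base 10 after the stop codon, chrXIV:695024-695051 minus strand: gggatctagTGTATATAgatttctagat
RSM19, base 38 after the stop codon, chrXIV:694996-695025 minus strand: atgatatatcaTGTAAATAagatcaagcca
RSM19, base 66 after the stop codon, chrXIV:694968-694997 minus strand: cagactcgggcTGTATATAtatatatatat
MRPL39, base 79 after the stop codon, chrXIII:251207-251236 minus strand: ttcatttatccTGTAAATAagtaatggata
MRPL4, base 28 after the stop codon, chrXII:1015467-1015496 plus strand: accctctctccTGTAAATAtatatatatat
MRPL3, base 18 after the stop codon, chrXIII:323054-323083 plus strand: gtttgccatttTGTAGATAgagaactcctt
MRPL3, base 53 after the stop codon, chrXIII:323089-323118 plus strand: gaatacattctTGTACATAtatatatacac

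MRPL28 and RSM10 are shown as the genes lowest in cdc55Δ relative to WT in their subunits, MRPL36 and MRPS12 as the highest, RSM19 as the gene with the most matches, MRPL39 as the gene with the highest level, MRPL4 as the gene with the fewest counts, and MRPL3 for its variant. In MRPL3 the fifth base of the upstream match is G, which occurred in 1 of 66 matches, against A in 29, T in 20 and C in 16. A C stood 2 bases before the match in 43 of 66 (65.2%), which was not counted in other mRNAs. Within the 200 bases searched, the median first base was at position 56.5 after the stop codon (quartiles 34 and 85, range 8 to 165). Of the 53 genes with a match, 48 had one within 100 bases, beside 609 of the 844 mRNAs with a match. A match is a description of the sequence, and binding by Puf3p was not measured.

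**Figure D1:**
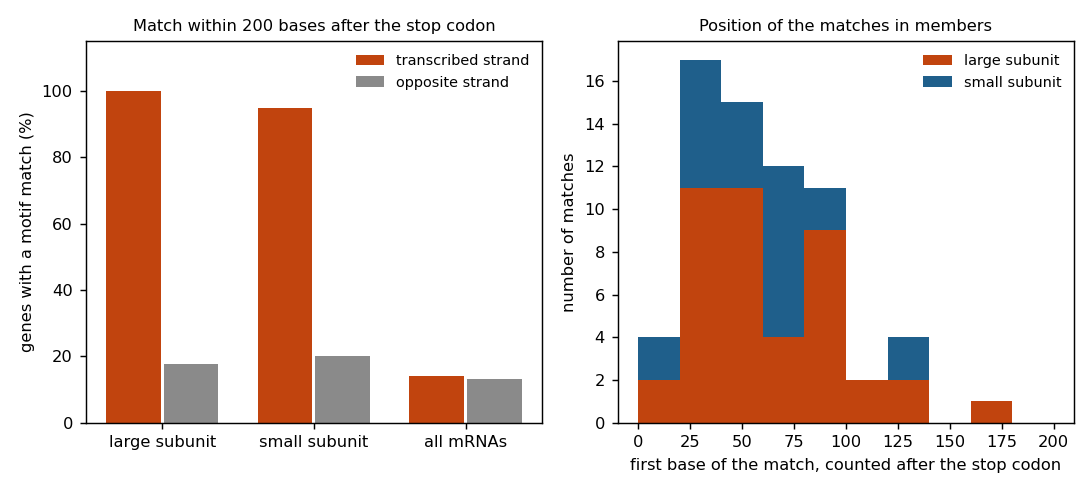
The bars give the percentage of genes with TGTANATA within 200 bases after the stop codon on the transcribed strand and on the opposite strand. Large subunit genes reached 100% and small subunit genes 19 of 20 on the transcribed strand, against 14.1% of all mRNAs. The histogram gives the first base of each of the 66 matches, counted in bases after the stop codon and stacked by subunit.

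The mitochondrial ribosomal protein mRNAs were of moderate and similar abundance. Levels were compared per length with the deposited RPKM values, which divide the count by the length of the gene and the size of the library. The library totals were 30133454 counts for cdc55Δ and 33233285 counts for WT. A filter of a mean of at least 50 normalised counts over both libraries kept 53 of the 54 genes, as it kept 5705 of 6420 features. The 53 genes had a median level of 35.7 RPKM in cdc55Δ (range 16.8 to 128.5) and 40.1 RPKM in WT (range 20.4 to 133.4), beside medians over all mRNAs of 36 RPKM in cdc55Δ and 35.93 RPKM in WT. Of these, 48 lay within 2-fold of their own median in cdc55Δ (90.6%) and 50 in WT (94.3%), whereas 48.8% of all mRNAs in cdc55Δ and 48.9% in WT lay that close to the median of all mRNAs. The upper quartile was 1.68-fold above the lower quartile in each library, against 4.29-fold for all mRNAs in cdc55Δ and 4.25-fold in WT. The cytosolic ribosomal protein genes, 132 by name, had a median of 2251 RPKM in cdc55Δ and 2199 RPKM in WT.

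**Figure D2:**
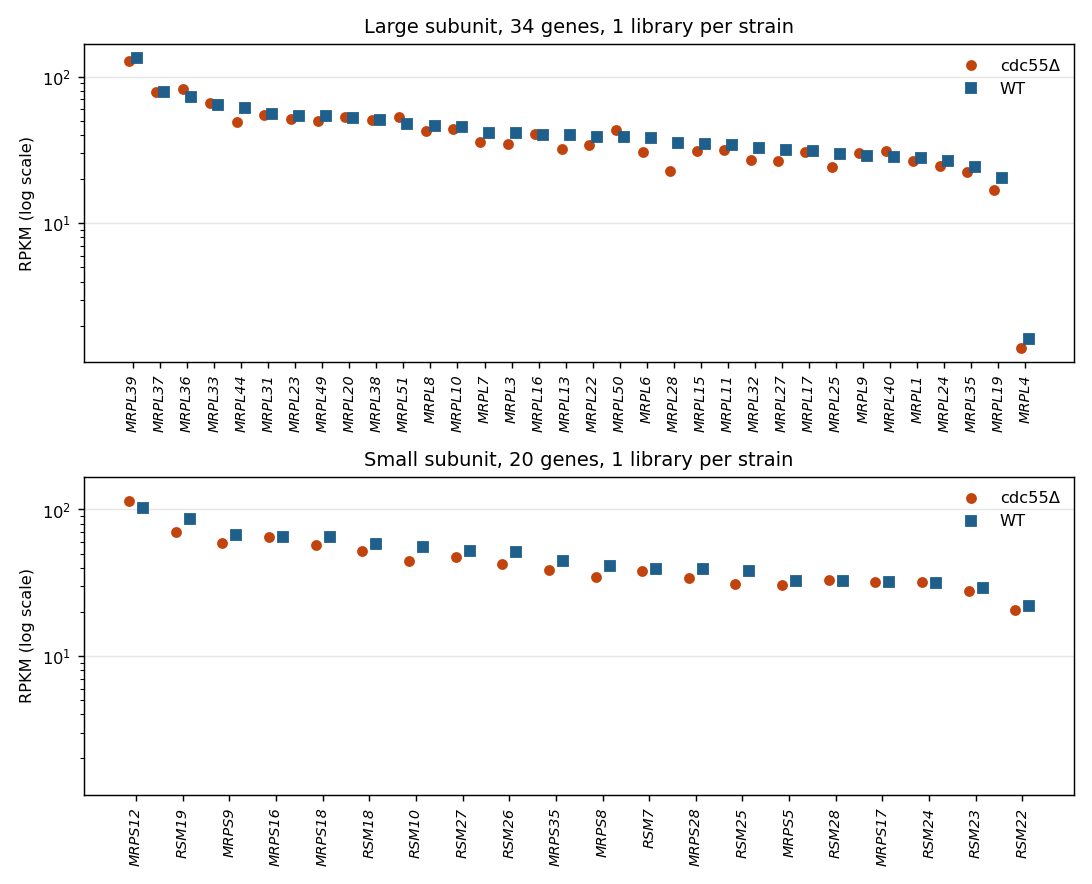
Deposited RPKM of each gene on a log scale in cdc55Δ (circles) and WT (squares), ordered by the WT level within each subunit, with 1 library per strain. All genes but MRPL4 lie between 16.8 and 133.4 RPKM, and MRPL4 lies at 1.42 RPKM in cdc55Δ and 1.63 RPKM in WT.

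In the large subunit, MRPL39 (bL33m, chrXIII:251304-251516, minus strand), the shortest gene of all with a coding length of 213 bases, had the highest level, 128.5 RPKM in cdc55Δ and 133.4 RPKM in WT. MRPL37, which encodes the mitochondria-specific protein mL54, followed with 78.8 RPKM in cdc55Δ and 79.0 RPKM in WT. MRPL36 (bL31m) had 81.9 RPKM in cdc55Δ and 72.8 RPKM in WT. The order of MRPL36 and MRPL37 thus differed between the libraries. At the other end, MRPL19 (uL11m), at the base of the stalk that binds translation factors, had 16.8 RPKM in cdc55Δ and 20.4 RPKM in WT, and MRPL35 (mL38) had 22.2 RPKM in cdc55Δ and 24.1 RPKM in WT. MRPL19 overlaps the open reading frame YNL184C on the same strand over 113 bases, so its count depends on how reads shared between genes were treated.

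In the small subunit, MRPS12 had the highest level, 113.4 RPKM in cdc55Δ and 102.1 RPKM in WT. It encodes uS12m, a protein of the decoding site. RSM19, for uS19m of the head of the subunit, had 70.0 RPKM in cdc55Δ and 86.1 RPKM in WT, and MRPS9, for uS9m, had 59.3 RPKM in cdc55Δ and 66.9 RPKM in WT. RSM22 and RSM23, the longest genes of the small subunit, had the lowest levels. RSM22, the gene without a Puf3p match and with the longest coding sequence (1887 bases), had 20.8 RPKM in cdc55Δ and 21.9 RPKM in WT. RSM23, for the GTP-binding protein mS29, had 27.9 RPKM in cdc55Δ and 29.2 RPKM in WT, and RSM24 (mS35) had 32.01 RPKM in cdc55Δ and 31.53 RPKM in WT. Subunit medians were close to each other, with 35.0 RPKM for the large and 38.3 RPKM for the small subunit in cdc55Δ, and 39.8 RPKM for the large and 42.8 RPKM for the small subunit in WT.

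Longer genes had lower RPKM. Across the 53 genes, Spearman's rho of coding length with RPKM was -0.54 in cdc55Δ and -0.58 in WT, compared with -0.20 in both libraries over all mRNAs. The points share a library and a length that also divides the counts, and genes are not independent replicates, so the values are a description. The listed length of all 54 genes equals the coding length in R64, without untranslated regions, and ranges from 213 to 1887 bases with a median of 706.5. Coding length showed no such relation to the log2 fold change (rho = 0.00), and neither did GC content (rho = 0.10).

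**Figure D3:**
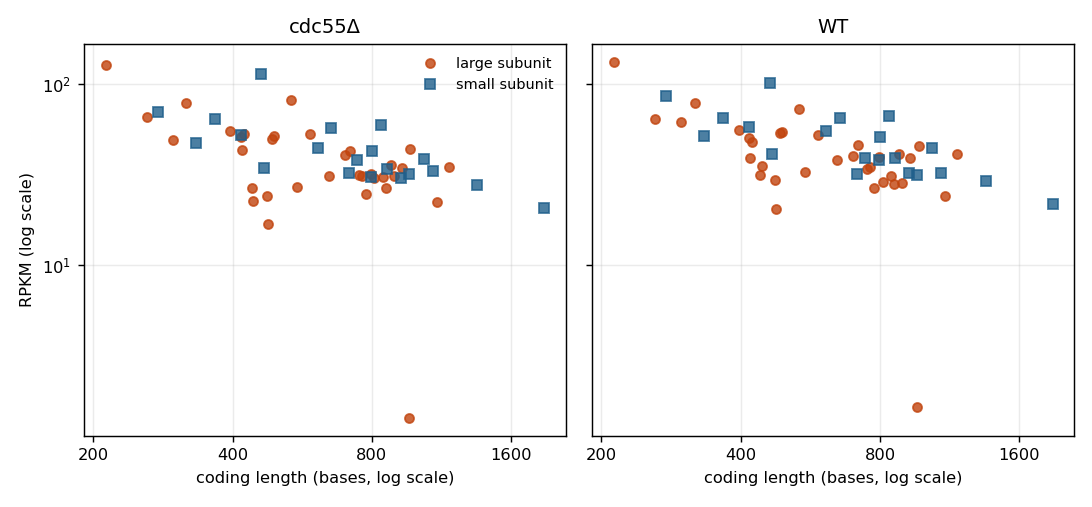
RPKM against coding length for large (circles) and small subunit genes (squares), with both axes on a log scale, in cdc55Δ (left) and WT (right). Spearman's rho over the 53 genes that passed the count filter was -0.54 in cdc55Δ and -0.58 in WT. The isolated point near the bottom is MRPL4, which is plotted but is not among the 53.

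MRPL4 stood apart from every other gene in both libraries. It encodes uL29m, a protein at the exit of the peptide tunnel, and lies at chrXII:1014491-1015450 on the plus strand. It had 41 counts in cdc55Δ and 52 counts in WT, or 1.42 RPKM in cdc55Δ and 1.63 RPKM in WT. This was 11.9-fold below the next lowest gene in cdc55Δ and 12.5-fold below it in WT. Its neighbours were not low, since LSM3 had 86.5 RPKM in cdc55Δ and 86.0 RPKM in WT, and SEC39 had 36.4 RPKM in cdc55Δ and 40.5 RPKM in WT. MRPL4 overlaps no other annotated gene, and no stretch of 100 bases in it occurs elsewhere in the genome. Its match to the Puf3p sequence is printed with the others. Its log2 fold change of -0.17 had a 95% counting interval of -0.80 to 0.44, too wide at this depth to tell a difference in either direction from none. What lies behind the low counts was not tested.

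Between the strains, the mitochondrial ribosomal protein mRNAs were slightly lower in cdc55Δ, and none was higher by 1.2-fold. The log2 fold changes are those of cdc55Δ over WT after scaling by trimmed mean of M values (TMM), each with a 95% Clopper-Pearson interval that covers counting error only. The 54 genes together had 42431 counts in cdc55Δ (0.141% of all counts) and 50239 counts in WT (0.151%). The log2 fold change of the sum was -0.08 (-0.09 to -0.06), whereas that of the sum over all mRNAs was 0.04. The median over the 53 genes was -0.08 (quartiles -0.21 and 0.02, range -0.62 to 0.20), beside a median of 0.00 over 5548 mRNAs (quartiles -0.13 and 0.16). Of the 53 genes, 36 had a log2 fold change below 0 (67.9%), compared with 49.6% of all features tested. In these bulk libraries a smaller share of the rRNA-depleted RNA and less of these mRNAs per cell cannot be told apart.

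Past a 1.2-fold difference, 8 of 53 genes were lower in cdc55Δ (15.1%) and 0 were higher. The same threshold took in 12.2% of all features as lower and 15.3% as higher. After TMM scaling the share of lower genes was thus close to the background, while the higher side held none of the 53 genes. With upper-quartile scaling 13 of 53 were lower, against 14.98% of all features, and with library size alone 12 of 53, against 14.01%. Counting intervals lay wholly below 0 for 20 genes and wholly above 0 for 4 genes, against 28.4% of all features below 0 and 31.5% above it. The 53 log2 fold changes had an SD of 0.16 and a median counting standard error of 0.07. The SD over all mRNAs, 0.41, includes extreme values such as the deleted CDC55 at -10.63. The distance between the quartiles was 0.23 for the 53 genes and 0.29 over all mRNAs. The threshold ran through a dense part of the values. MRPL25 at -0.27 was just inside it, and MRPL19 and MRPL32, both at -0.25, were just outside.

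**Figure D4:**
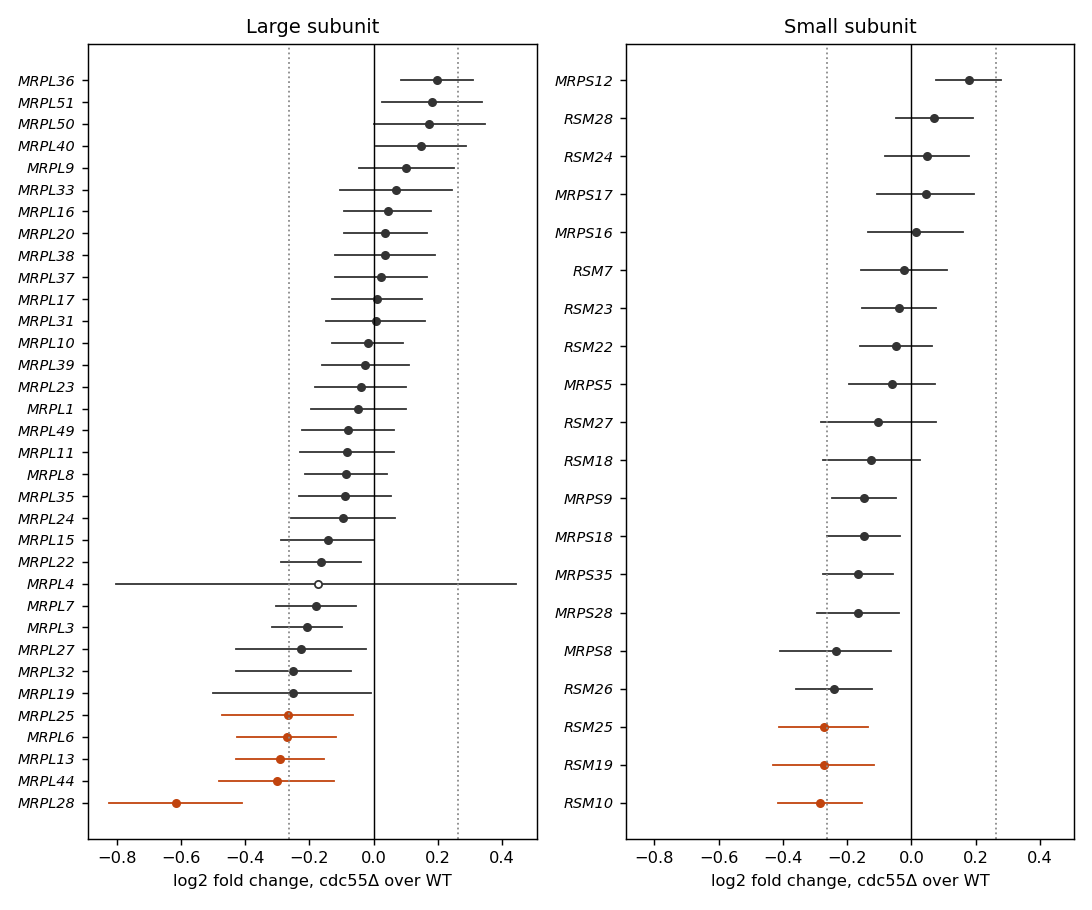
Log2 fold change of cdc55Δ over WT for each gene (points) with its 95% counting interval (lines), ordered within each subunit. Dotted lines mark a 1.2-fold difference and coloured points the 8 genes at least 1.2-fold lower in cdc55Δ. The open point is MRPL4, which failed the count filter. MRPL28 at -0.62 is the gene whose whole interval lies below the lower dotted line.

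Among the large subunit genes, MRPL28 differed most between the strains. It encodes mL40, a mitochondria-specific protein of the central protuberance, the crest of the large subunit that faces the small subunit, and lies at chrIV:1386073-1386516 on the plus strand. It had 303 counts in cdc55Δ and 522 counts in WT (22.6 RPKM in cdc55Δ and 35.4 RPKM in WT), a log2 fold change of -0.62 (-0.83 to -0.41). MRPL44, for mL53, had 438 counts in cdc55Δ and 607 counts in WT, with a log2 fold change of -0.30 (-0.48 to -0.12). Its interval overlapped that of MRPL28. MRPL13 (mL50) had 765 counts in cdc55Δ and 1052 counts in WT, with a log2 fold change of -0.29 (-0.43 to -0.16). MRPL6, for uL6m, had 600 counts in cdc55Δ and 814 counts in WT, with a log2 fold change of -0.27 (-0.43 to -0.12). The intervals of MRPL44, MRPL13 and MRPL6 overlapped, and of these low genes only MRPL6 has a bacterial counterpart.

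At the other end of the large subunit, MRPL36 had 1318 counts in cdc55Δ and 1292 counts in WT, with a log2 fold change of 0.20 (0.09 to 0.31). Its product, bL31m, belongs like mL40 to the central protuberance, so the extremes of the large subunit came from the same structural region. MRPL51 (mL43) had 679 counts in cdc55Δ and 673 counts in WT, with a log2 fold change of 0.18 (0.03 to 0.34). It shares 323 bases with the open reading frame YPR099C on the opposite strand, and the strand setting of the counting is not given in the sources used here. MRPL50 (bL9m) had 546 counts in cdc55Δ and 544 counts in WT, a log2 fold change of 0.17 (-0.00 to 0.35). MRPL40, for uL24m at the peptide exit, had 836 counts in cdc55Δ and 848 counts in WT, a log2 fold change of 0.15 (0.01 to 0.29). These values are below the 1.2-fold threshold. MRPL39, MRPL37, MRPL35 and MRPL19, named for their levels, had log2 fold changes of -0.03, 0.02, -0.09 and -0.25 in that order.

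Among the small subunit genes, RSM10, RSM19 and RSM25 had the lowest values. RSM10 and RSM19 encode proteins of the head, the part of the subunit that holds the tRNAs on their way through the ribosome. RSM10, for uS10m, had 821 counts in cdc55Δ and 1123 counts in WT, with a log2 fold change of -0.28 (-0.42 to -0.15). RSM19 had 582 counts in cdc55Δ and 790 counts in WT, with a log2 fold change of -0.27 (-0.43 to -0.12). RSM25, for the mitochondria-specific mS23, had 739 counts in cdc55Δ and 1003 counts in WT, with a log2 fold change of -0.27 (-0.41 to -0.13). These were the 3 small subunit genes at least 1.2-fold lower in cdc55Δ, and their intervals overlapped almost wholly. RSM26, for mS42, which resembles manganese superoxide dismutase, had 1028 counts in cdc55Δ and 1366 counts in WT, a log2 fold change of -0.24 (-0.36 to -0.12), and stayed within the threshold.

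MRPS12 was the highest small subunit gene, with 1579 counts in cdc55Δ and 1568 counts in WT and a log2 fold change of 0.18 (0.08 to 0.28). RSM28, for mS46, had 1089 counts in cdc55Δ and 1165 counts in WT, a log2 fold change of 0.07 (-0.05 to 0.19). RSM24 had 926 counts in cdc55Δ and 1006 counts in WT, a log2 fold change of 0.05 (-0.08 to 0.18). These intervals, unlike that of MRPS12, include 0. The same held for MRPS17 (uS17m), with 694 counts in cdc55Δ and 756 counts in WT and a log2 fold change of 0.04 (-0.11 to 0.20). MRPS9, RSM23 and RSM22 had log2 fold changes of -0.15, -0.04 and -0.05 in that order. MRPS12 and RSM19 are neighbours on the minus strand of chromosome XIV, at chrXIV:694361-694822 and chrXIV:695052-695327. Only 229 bases separate them, and the matches of RSM19 printed above lie in that gap, yet the genes were at opposite ends of the small subunit and their intervals did not overlap.

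The medians of the subunits were close to each other, and the difference between them has no test. The large subunit had a median log2 fold change of -0.08 (quartiles -0.21 and 0.04), with 21 of 33 genes below 0 and 5 at least 1.2-fold lower. The small subunit had a median of -0.11 (quartiles -0.18 and -0.01), with 15 of 20 genes below 0 and 3 at least 1.2-fold lower. Of all features tested, 49.6% were below 0 and 12.2% at least 1.2-fold lower. The lower shares of the large (15.2%) and small subunit (15%) were thus close to the background. Large minus small was 0.03. The summed counts of the large subunit were 23906 in cdc55Δ and 28087 in WT, a log2 fold change of -0.06 (-0.09 to -0.04). Those of the small subunit were 18525 in cdc55Δ and 22152 in WT, a log2 fold change of -0.09 (-0.12 to -0.06), and the intervals of the subunits overlapped.

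By descent, with 12.2% of all features at least 1.2-fold lower as the background, the 20 mitochondria-specific proteins had a median log2 fold change of -0.12, with 5 genes at least 1.2-fold lower, and the 32 tested proteins with a bacterial counterpart a median of -0.07, with 3 genes lower. In the large subunit the medians were -0.14 for 13 mitochondria-specific genes, of which 4 were lower, and -0.04 for 20 genes of bacterial type, of which 1 was lower. In the small subunit the order was the other way round, with -0.10 for 7 mitochondria-specific genes and -0.14 for 12 genes of bacterial type. The family names come from RefSeq, which gives none for RSM22. The differences are descriptions of these libraries.

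By position in the ribosome, the 5 tested proteins around the peptide exit tunnel had a median of -0.16, from MRPL13 at -0.29 to MRPL40 at 0.15, with MRPL3 (-0.21), MRPL22 (-0.16) and MRPL15 (-0.14) between them. The 5 proteins of the central protuberance had a median of -0.09, spanning MRPL28 and MRPL36, with MRPL7 (uL5m) at -0.18 and MRPL17 (mL46) at 0.01. The stalk proteins were MRPL19 at -0.25, MRPL11 (uL10m) at -0.08 and MRPL1 (uL1m) at -0.05. Among head proteins of the small subunit, RSM10 was at -0.28, RSM19 at -0.27, MRPS9 at -0.15 and RSM23 at -0.04. RSM7 was at -0.02 and RSM24 at 0.05. RSM10 and RSM19 were at least 1.2-fold lower, as were 12.2% of all features. Not every head protein is listed here.

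The other gene groups of mitochondrial translation also had medians slightly below 0. Their counts past 1.2-fold are to be read beside the 12.2% of all features that were lower and the 15.3% that were higher. The 26 mitochondrial ribosomal proteins called MRP, IMG, NAM and so on had a median log2 fold change of -0.14, with 5 at least 1.2-fold lower and 0 higher, from FYV4 (small subunit) with 158 counts in cdc55Δ and 249 counts in WT at -0.49 to MRP49 (large subunit) with 575 counts in cdc55Δ and 566 counts in WT at 0.19. All 26 had a match to the Puf3p sequence. Factors for assembly of the mitochondrial ribosome and maturation of its rRNAs (11 genes) had a median of -0.13, with 1 lower and 0 higher, from GEP3 at -0.42 to MTG1 at 0.10. Initiation, elongation, release and recycling factors of mitochondrial translation (9 genes) had a median of -0.15, with 2 lower and 0 higher, from FMT1, the formyltransferase of the initiator tRNA, at -0.27 to AIM23, an initiation factor, at 0.15.

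The 13 mitochondrial aminoacyl-tRNA synthetases had a median of -0.11, from DIA4 at -0.21 to MSF1, the phenylalanyl enzyme, at 0.37. Here 0 genes were lower by 1.2-fold and 2 were higher, the other being MST1 at 0.35 (the threonyl enzyme). Translational activators and membrane receptors of the mitochondrial ribosome (19 genes) had a median of -0.05, with 2 lower and 0 higher, from CBS1, an activator of cytochrome b mRNA translation, at -0.48 to PET54 at 0.22. The cytosolic ribosomal protein genes had a median of 0.04, which upper-quartile scaling brought to about 0, with 1 lower and 10 higher of 132, both shares below those of all features (12.2% lower and 15.3% higher), and 5 of them (3.79%) had a match to the Puf3p sequence. These lists were compiled with earlier results of these data known, and the values carry no test.

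**Figure D5:**
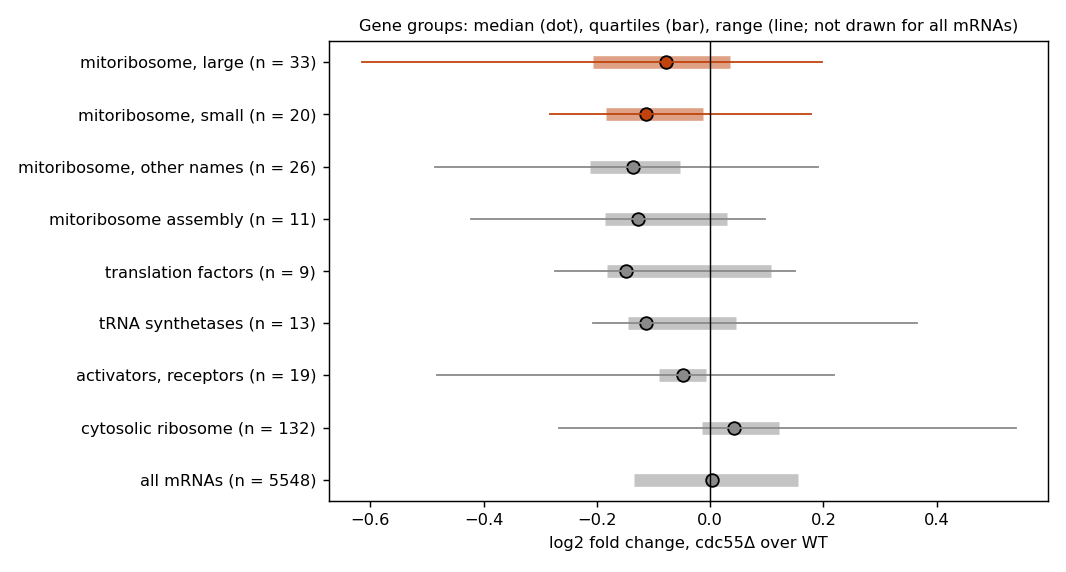
Median log2 fold change of cdc55Δ over WT (dot), quartiles (bar) and range (line) for the large and small subunit genes and for the other gene groups, with the number of genes tested. The range of all mRNAs is not drawn. The groups of the mitochondrial translation apparatus have medians between -0.15 and -0.05, the cytosolic ribosomal proteins 0.04 and all mRNAs 0.00.

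The median differed little with the number of Puf3p matches. The 40 tested genes with 1 match had a median of -0.09, and the 12 genes with 2 or more a median of -0.07, including both MRPL28 and MRPL36. PUF3 itself, which has no match, had 870 counts in cdc55Δ and 1052 counts in WT, a log2 fold change of -0.11 (-0.24 to 0.03). As a check of the labels, CDC55 had 1 count in the cdc55Δ library and 2614 counts in the WT library, a log2 fold change of -10.63 (-16.49 to -8.70).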

How the data were processed

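RNA-seq was available for 1 cdc55Δ and 1 WT library of BY4741. Per the study's methods and the submitters' processing notes, Cutadapt was used for demultiplexing, HISAT2 for mapping to S288C and featureCounts for counting. The library kit keeps strand, but the strand setting and the treatment of multi-mapping reads are not given in the sources used here. The deposited table holds raw counts, RPKM values that the authors computed from the listed length and the library total, and deposited TPM values, which were not used.

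Counts were scaled by TMM over all features (edgeR 4.0.16, R 4.3.3). Log2 fold changes used a prior count of 0.5, and features with a mean of at least 50 normalised counts were tested against a 1.2-fold threshold. With 1 library per strain there was no spread from which edgeR could fit a test, so intervals (95%, Clopper-Pearson, SciPy 1.17.1) cover counting error only, and the p-values that the study derived with edgeR were not repeated. Intervals and calls were checked on simulated counts that held counting error only, with planted differences larger than 1.2-fold. Culture-to-culture spread was not part of that check. Positions, family names and sequences came from the RefSeq annotation of R64, which is not stated to be the copy used for counting but whose coding lengths equal the listed lengths of all 54 genes. Of 6106 features with an accession, 6103 matched it. The 200-base windows may run past the end of a transcript. Named genes were the 4 highest and 4 lowest log2 fold changes and the 3 highest and 3 lowest WT RPKM of each subunit, the highest and lowest of each gene list, members by role group, and CDC55. MRPL25, MRPL32, MST1 and MRPL4's neighbours were added after their values were seen. A list of proteins encoded by mitochondrial DNA matched 0 features and was not analysed here. Members and lists were chosen with earlier results of these data known. Alternatives were other scalings (DESeq2 1.42.0 size factors among them), prior count, count minimum, fold threshold, gene set and motif window.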

Additional observations from a re-analysis of the deposited data

How the results depend on the processing

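The median log2 fold change of the mitochondrial ribosomal protein genes stayed below 0 under each scaling, prior count, count minimum and gene set tried, and that of the summed counts under each scaling and gene set. DESeq2 size factors and TMM over mRNAs moved both by less than 0.02, the half-width of the counting interval of the sum. The median has no counting interval of its own. Scaling by library size gave a median of -0.11 and a sum of -0.10, and upper-quartile scaling -0.12 for both, since these scalings lower every log2 fold change by 0.03 and 0.04 in that order. The genes below 0 then numbered 40 and 42 of 53 in place of 36, and those at least 1.2-fold lower 12 and 13 in place of 8, with 14.01% and 14.98% of all features lower. At a fold threshold of 1.5 only MRPL28 remained (1 gene lower), and at 2 there was 0. The shares of all features past these folds were not computed, so these counts have no background beside them. Adding the proteins of other names gave a median of -0.10 and 13 genes lower of 79 with TMM scaling, beside 12.2% of all features. No setting gave a gene that was higher by 1.2-fold. Large minus small was 0.03 in each setting, but a scaling cannot change it, because it shifts both subunits alike. A window of 100 bases held the Puf3p sequence in 88.9% of the genes, and the opposite strand in 18.5%. For 24 named genes, each of 120 values under another scaling or prior count lay within the gene's counting interval. A scaling shifts all genes nearly alike, here by no more than 0.04, while counting standard errors were at least 0.05. This outcome therefore followed from the size of the shifts and is no check of single genes. No paired analysis was possible because each strain has 1 library. Depth limits single genes, whose intervals reached 0.14 to either side of the value at the median, and culture-to-culture spread is unknown.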

Other observations

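The rRNAs of the mitochondrial ribosome, which come from mitochondrial DNA, were higher in cdc55Δ. The small subunit rRNA had 4424 counts in cdc55Δ and 3585 counts in WT, a log2 fold change of 0.47 (0.41 to 0.54), and the large subunit rRNA had 19044 counts in cdc55Δ and 15494 counts in WT, also 0.47 (0.44 to 0.50). The values of the rRNAs thus lay on the other side of 0 from the median of the protein mRNAs. The libraries were depleted of rRNA, and the cytosolic rRNA that was left had 14221 counts in cdc55Δ and 6706 counts in WT, a log2 fold change of 1.25 (1.21 to 1.30). The part of the depletion in the mitochondrial values was not tested.

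Among all mRNAs, the median log2 fold change was -0.02 in the 816 tested genes with a Puf3p match and 0.01 in the 4728 without. Without the genes named MRPL, MRPS or RSM, the 764 remaining tested genes with a match had a median of -0.01, beside -0.08 for the genes so named. The 764 still include the 26 mitochondrial ribosomal proteins of other names.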
